A study of Mus musculus with 35 samples.

Results

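A Ly6C-negative monocyte sort from mouse spleen and blood, the cells left after 3 other Ly6C-negative sorts had been taken out, was compared with inflammatory monocytes of bone marrow. Its members were chosen by title: 1 array of the remaining Ly6C-negative cells from spleen, 1 from blood, and the 2 arrays of inflammatory monocytes, 4 of the 35 arrays in all. Every mouse was a male C57BL/6J of 8 weeks, with no transgene or agent named. The remaining cells, called other Ly6C-negative cells below, were defined as Ly6C-negative monocytes without SatM, without cells negative for Msr1 and Ceacam1, and without cells dull for both. SatM are atypical monocytes with a segregated nucleus that carry Ceacam1 and Msr1. SatM served as a reference in 2 sets of arrays, 2 numbered bone marrow arrays and a tissue panel with 1 array each from spleen, bone marrow and blood. Marker-negative cells (3 arrays) and M2-like macrophages (2 arrays) entered the fit for the estimate of spread and are set beside the comparison in a few places. Each array held total RNA of sorted cells on an Affymetrix Mouse430_2 chip. Nothing in the labels says that arrays of 1 group came from separate animals, so spread within a group may be technical. The p-values of the main fit rest on a spread pooled over 14 arrays of 6 groups. Several of these groups hold 1 array per tissue, so that spread takes in tissue differences.

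Mouse blood monocytes are usually divided by the surface antigen Ly6C. Classical, or inflammatory, monocytes are Ly6C-high, leave the marrow through the chemokine receptor CCR2 and carry much mRNA for fibronectin (Fn1), coagulation factor XIII (F13a1) and versican (Vcan). Nonclassical monocytes are Ly6C-low, patrol the vessel wall, depend on the nuclear receptor Nr4a1 and are marked by Treml4, CD43 (Spn), Fcgr4 and CD11c (Itgax). The comparison asks how far the remaining Ly6C-negative cells resemble classical monocytes. The probe set for the Ly6C genes carries both symbols, Ly6c1 and Ly6c2, and was not analysed here.

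Values are log2 units as deposited, so that a difference of 1 is a doubling. All arrays shared a lowest value of 2.30, called the floor, and between 43.6% and 48.3% of an array's probe sets lay there. Arrays have no read depth, and their number limits the precision. A gene was called when limma gave a Benjamini-Hochberg adjusted p under 0.05 over the 9254 genes tested and a difference of at least 1. Tissue, cell type and array set changed together: the inflammatory monocytes were numbered marrow arrays, and the other Ly6C-negative cells were panel arrays of spleen and blood. These cannot be told apart in the comparison, and for the genes that rose most the difference of panel spleen and blood SatM from numbered SatM, called the SatM shift, is given beside the value. In sorted bulk samples, fewer cells of a type and less RNA per cell cannot be told apart either.

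The other Ly6C-negative cells had fewer genes far from the inflammatory monocytes than any other sort of the series. Over all 18193 genes, 90 in the blood array and 231 in the spleen array were at least 3 log2 units from the inflammatory monocyte mean. The numbered SatM arrays had 327 and 341 such genes, the panel SatM arrays 397 in blood, 539 in spleen and 595 in marrow. Most of the distant genes were higher: 63 of 90 in blood and 203 of 231 in spleen. The blood array correlated with the inflammatory monocyte arrays at Pearson r = 0.979 for both, and the spleen array at 0.967 and 0.969. These correlations are across genes within pairs of arrays, and genes are not independent replicates. The spleen array correlated at 0.978 with the spleen SatM array of its own set, above its values with inflammatory monocytes. The blood array correlated at 0.974 with the blood SatM array.

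**Figure D1:**
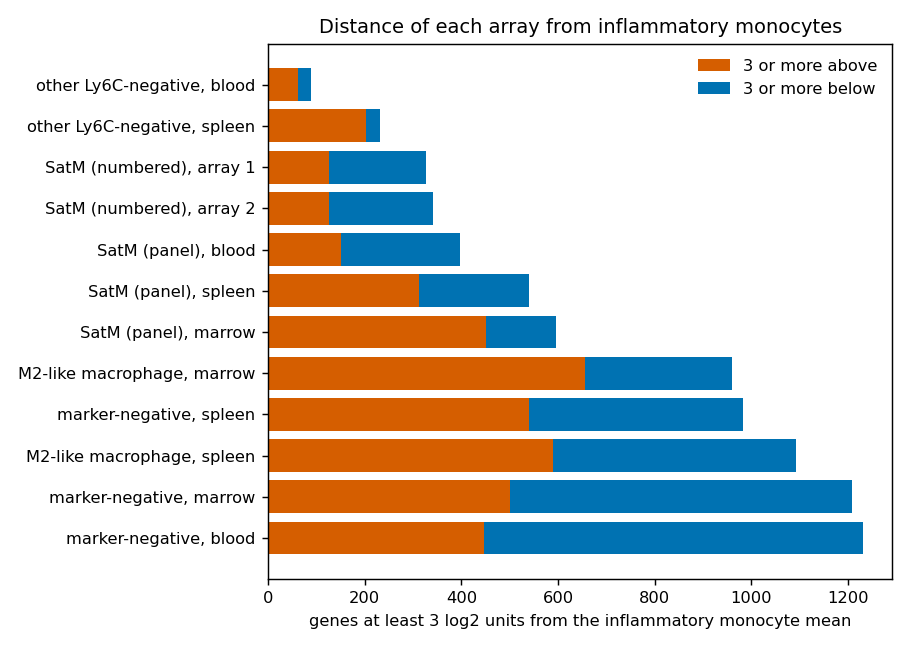
Number of genes (of 18193) at least 3 log2 units above (orange) or below (blue) the mean of the 2 inflammatory monocyte arrays, for each array of 5 sorts. The bars of the other Ly6C-negative cells are the shortest, at 90 genes in blood and 231 in spleen.

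The test called 92 of the 9254 genes, 0.994% of those tested, with 33 higher (0.357%) and 59 lower (0.638%) in the other Ly6C-negative cells. After quantile normalization of the arrays the split was 39 higher and 45 lower. At an unadjusted p under 0.05 there were 1617 genes (17.5%), the share against which such counts are read below. The median difference over all tested genes was -0.19, and 78.6% of genes differed by less than 1. In the same fit and against the same 2 inflammatory monocyte arrays, 645 genes (6.94%) were called for numbered SatM and 1532 (16.2%) for panel SatM. For marker-negative cells the share was 30.7%, and for M2-like macrophages 26%. These comparisons share their control arrays. With the 4 compared arrays alone, which leaves 2 residual degrees of freedom, 870 genes (9.4%) were called, 232 higher (2.51%) and 638 lower (6.89%). That fit holds no tissue spread beyond the spleen and blood pair, whereas the main fit drew its spread from 14 arrays, and its counts are given below as those of the 4-array fit.

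**Figure D2:**
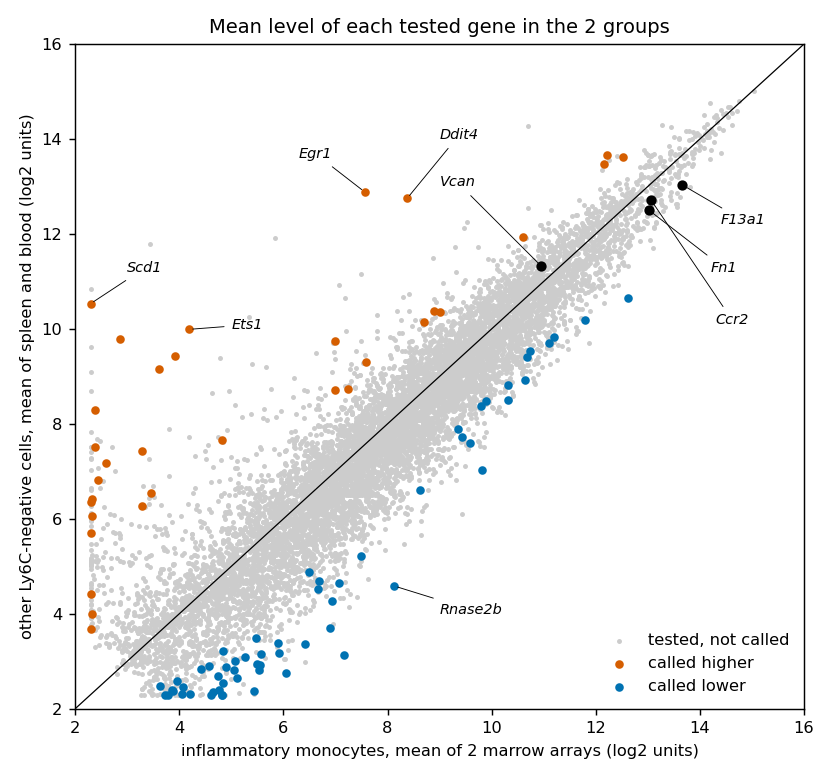
Mean level of each tested gene in the 2 inflammatory monocyte arrays (horizontal, log2 units) and in the spleen and blood arrays of the other Ly6C-negative cells (vertical, log2 units). Fn1, F13a1, Ccr2 and Vcan (black) lie near the line of equal levels, and the 33 genes called higher (orange) include 8 whose inflammatory monocyte arrays were both at the floor.

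The classical monocyte genes were at or close to inflammatory monocyte level in both Ly6C-negative arrays. Fn1 measured 12.96 and 13.08 in inflammatory monocytes, 12.34 in the spleen array and 12.66 in the blood array. F13a1 measured 13.59 and 13.72 against 12.92 and 13.15. Both genes lay lower in each Ly6C-negative array than in each inflammatory monocyte array, by 0.52 (SE 0.99) and 0.62 (SE 1.64) on average, and neither difference was called. Of all tested genes, 43.0% lay lower in both Ly6C-negative arrays than in both inflammatory monocyte arrays, and 22.6% lay higher in both. Vcan, a matrix proteoglycan, was slightly the other way, at 11.04 and 10.86 against 11.37 and 11.28. Ccr2 measured 12.85 and 13.27 against 12.58 and 12.85, and the groups overlapped. Chil3, a chitinase-like protein of classical monocytes, was between 14.14 and 14.29 on all 4 arrays.

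Of the 12 classical genes tested, 0 were called by limma in either fit. In the main fit 0 had an unadjusted p under 0.05. That fit could hardly call several of them, because its spread took in the marker-negative arrays. There Chil3 measured 2.30 in spleen, 5.34 in marrow and 2.30 in blood, and the SE of its difference was 1.85. The absence of a call thus does not show equal levels. The median difference of the 12 genes was -0.35, beside -0.19 over all genes tested, and their differences ran from -0.84 to 1.28. The lowest was that of the chemokine gene Ccl9, at 13.70 and 13.93 against 12.86 and 13.10. In the 4-array fit Ccl9 had an adjusted p of 0.0442 but fell short of the difference of 1. The highest was Cd14, the lipopolysaccharide co-receptor, which split by tissue: it measured 8.47 and 8.48 in inflammatory monocytes, 11.81 in the spleen array and 7.70 in the blood array. The alarmin-family gene S100a4, haptoglobin (Hp), Plac8, Mgst1 and the high-affinity IgG receptor gene Fcgr1 differed by less than 0.45.

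SatM gave a scale for these levels, and that scale depended on the array set. In the numbered SatM arrays Fn1 measured 3.79 and 2.58, F13a1 2.44 and 2.40, and Vcan was at the floor in both. In the panel SatM arrays of spleen, marrow and blood, Fn1 measured 11.14, 10.57 and 9.30. F13a1 measured 7.92, 11.33 and 8.43 in the same order, and Vcan 5.88, 9.49 and 8.35. Panel marrow SatM thus exceeded numbered marrow SatM by 7.39 for Fn1, 8.91 for F13a1 and 7.20 for Vcan. The part of the array set in the high Fn1, F13a1 and Vcan of the other Ly6C-negative cells was not tested. Within the panel and within a tissue, the other Ly6C-negative array lay above the SatM array in spleen and in blood for 12 of 12 classical genes, beside 45.5% of all tested genes. The difference was 5.50 in spleen and 2.93 in blood for Vcan, 2.39 and 1.56 for Ccr2, and 1.20 and 3.36 for Fn1, and it was 4.72 in blood for F13a1. Each is 1 array against 1 array, with no test.

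Nonclassical genes held intermediate or low levels. Treml4 measured 7.34 and 7.33 in inflammatory monocytes, 8.76 in the spleen array and 8.27 in the blood array, with 12.04 and 11.88 in numbered SatM. Both Ly6C-negative arrays thus lay above both inflammatory monocyte arrays and well under SatM. The difference of 1.18 (SE 1.16) was not called (adjusted p = 0.668, and 0.0549 in the 4-array fit). Itgax measured 3.87 and 4.75 against 7.93 and 6.73, the largest difference of the list at 3.02 (SE 0.98, adjusted p = 0.152). Nr4a1 measured 8.26 and 8.55 against 11.99 and 9.46, high in spleen and only a little higher in blood. The integrin gene Itgal (CD11a) measured 10.09 and 10.17 against 11.19 and 11.25, and the transcription factor gene Pou2f2 8.02 and 8.02 against 9.05 and 9.29. The angiotensin-converting enzyme gene Ace measured 6.22 and 6.72 against 7.53 and 7.39. For each gene named in this paragraph, both Ly6C-negative arrays lay above both inflammatory monocyte arrays, as for 22.6% of all tested genes. The same held for Fcgr4 and Eno3. The other members of the list overlapped, except Pparg, which was lower in both arrays.

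Other nonclassical genes were within 0.5 of inflammatory monocyte level on average. Spn measured 9.79 and 9.54 against 9.71 and 9.76. Fcgr4 measured 8.37 and 8.66 against 9.10 and 8.92, where numbered SatM reached 13.40 and 13.69. The scavenger receptor gene Cd36 measured 4.93 and 5.12 against 5.42 and 4.26, with numbered SatM at 10.53 and 10.56. Eno3, Gngt2, Lair1, Adgre4 and Cx3cr1 differed from inflammatory monocytes by between -0.46 and 0.42. Pparg, a nuclear receptor of lipid metabolism, was the 1 member called: it measured 5.58 and 5.36 against 3.65 and 3.32 and fell by 1.98 on the log2 scale (SE 0.39, adjusted p = 0.0447). With terms for tissue and array set, the Pparg difference was 0.05 (adjusted p = 0.995), and panel spleen and blood SatM differed from numbered SatM by -1.97. In all, 1 of 15 members was called in the main fit. In the 4-array fit 3 were higher (Itgal, Itgax and Pou2f2) and 1 lower, and the list's median difference was 0.42. Against SatM of the same tissue and set, 14 of 15 nonclassical genes were lower in both tissues, beside 22.5% of all tested genes. The median was -2.49 in spleen and -2.68 in blood.

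**Figure D3:**
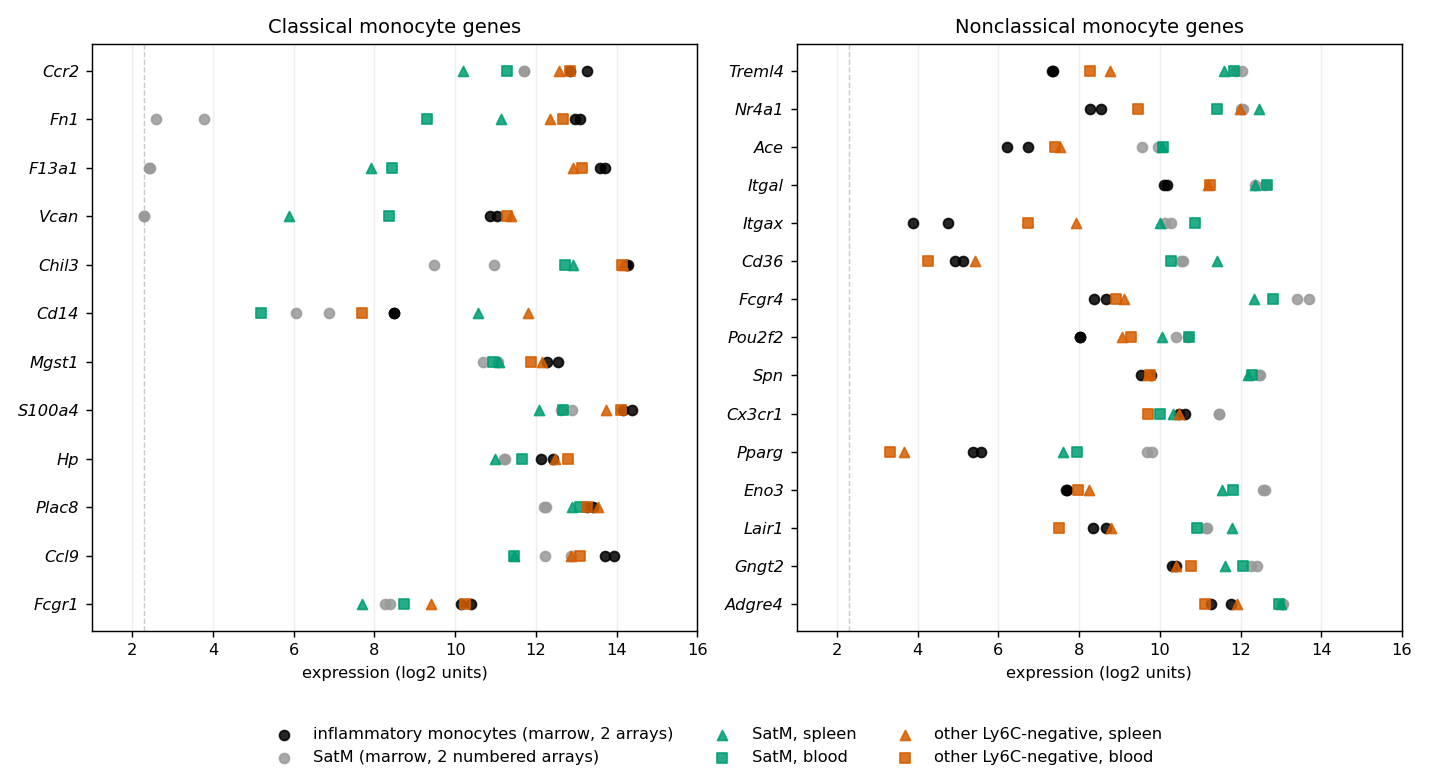
Level (log2 units) of each measured classical (left) and nonclassical (right) monocyte gene, 1 point per array, with the floor as a dashed line and panel marrow SatM not drawn. The other Ly6C-negative arrays (orange) lie with the inflammatory monocytes (black) for Fn1, F13a1, Vcan, Spn and Fcgr4, and between these and SatM (grey, green) for Treml4, Itgax and Ace.

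The genes of the shared monocyte lineage check the label of the sort. Lysozyme (Lyz2) was between 14.64 and 14.87 on the 4 arrays. The growth factor receptor gene Csf1r measured 14.29 and 14.52 against 13.41 and 13.99, and the adaptor gene Tyrobp 13.99 and 14.02 against 13.72 and 13.99. None of the 20 shared lineage genes was called in either fit. In the main fit 0 had an unadjusted p under 0.05, and the list's median difference was -0.17. The SE in that fit was 1.90 for Lyz2 and 1.67 for Csf1r. Its spread took in marker-negative arrays with Lyz2 at 9.99 in spleen, 7.24 in marrow and 2.62 in blood. For such genes the absence of a call cannot show equal levels. Of the sort markers, the scavenger receptor gene Msr1 measured 10.76 and 10.94 against 10.26 and 9.89. The adhesion gene Ceacam1 measured 10.38 and 10.34 against 10.84 and 10.93. Neither was at or near the floor, and numbered SatM had less Msr1 mRNA (7.45 and 6.47) and more Ceacam1 mRNA (11.92 and 11.93). F4/80 (Adgre1) measured 10.29 and 10.36 against 9.57 and 9.26, and CD11b (Itgam) between 4.28 and 5.59. None of the 8 sort markers with a value was called in either fit. In the main fit 0 had an unadjusted p under 0.05, with the same limit for Adgre1 (SE 1.49) and Csf1r.

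The 10 largest rises among the 33 genes called higher were those of Scd1, Ablim1, Klrd1, Ets1, Gimap3, Tnfrsf13c, Egr1, Cd2, Aff3 and Jakmip1. Ets1, a transcription factor of lymphocytes, measured 4.19 on both inflammatory monocyte arrays, 10.49 in the spleen array and 9.49 in the blood array, a rise of 5.80 (SE 0.50, adjusted p = 0.000447). Numbered SatM had Ets1 at 10.32 and 10.20, and its SatM shift was 1.26. Scd1, the stearoyl-CoA desaturase that makes monounsaturated fatty acids, was at the floor in inflammatory monocytes and measured 11.34 and 9.72. It was at least 301-fold higher (adjusted p = 0.0246), with a SatM shift of 3.92. Ablim1, an actin-binding protein, measured 2.67 and 3.05 against 10.07 and 9.50 (adjusted p = 0.00412). Its SatM shift was 7.57, and its difference turned to -0.28 with terms for tissue and array set and to -0.64 with the SatM shift subtracted. Klrd1 (CD94), a receptor subunit of natural killer cells, measured 2.38 and 2.37 against 8.80 and 7.77, a rise of 5.91 (SE 0.76, adjusted p = 0.00454), with a SatM shift of 2.15.

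Several of these genes were highest in the marker-negative sort, where Klrd1 measured 12.09 to 13.13, Ets1 12.59 to 13.46 and Ablim1 12.43 to 13.74. Gimap3, a lymphocyte GTPase, measured 3.61 on both inflammatory monocyte arrays and 9.19 and 9.12 in the Ly6C-negative cells, with a SatM shift of 5.37. Tnfrsf13c, the BAFF receptor of B cells, measured 4.14 and 3.72 against 9.88 and 8.98. Its SatM shift was 6.12, and with that subtracted its difference turned to -0.62. The adhesion receptor gene Cd2 measured 2.47 and 2.30 against 7.85 and 7.18, with a SatM shift of 4.78. Egr1, an immediate-early transcription factor, measured 7.46 and 7.66 against 13.92 and 11.86, with a SatM shift of 2.08. Aff3, a nuclear factor of lymphoid cells, rose by 4.58 (SE 0.75), with a SatM shift of 4.23. Jakmip1 rose by 4.37 (SE 0.85), with a SatM shift of 5.30, and its difference turned to -0.51 with tissue and set terms and to -0.93 with the SatM shift subtracted. Ddit4, a stress-induced inhibitor of mTOR, measured 8.71 and 8.05 against 12.61 and 12.90. Cxcr4, the receptor that holds leukocytes in the marrow, was high everywhere and rose from 12.11 and 12.19 to 13.67 and 13.29 (difference 1.33, SE 0.24, adjusted p = 0.0301). Ddit4 and Cxcr4 were chosen for the text after their values were seen, as were the Cd209 genes, Nid1, Cd7, Rfx2, P2ry10 and Acp5.

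Genes of the Cd209 cluster formed a small group. Cd209a, the mouse gene most often measured as DC-SIGN on monocyte-derived dendritic cells, measured 4.20 and 5.64 in inflammatory monocytes against 8.09 and 7.64. Its difference of 2.94 was not called in the main fit (adjusted p = 0.286) and was called in the 4-array fit (adjusted p = 0.0478). Cd209d was at its lowest value of 2.32 in both inflammatory monocyte arrays and measured 5.91 and 6.20, at least 13.3-fold higher (adjusted p = 0.0064). On the SatM arrays Cd209d was 4.13 in blood and at its lowest value on the other 4. Cd209c was at the floor in inflammatory monocytes and in all 5 SatM arrays and measured 4.75 and 4.10, at least 4.37-fold higher (adjusted p = 0.00297). Cd209a was between 2.30 and 2.61 on the SatM arrays and measured 7.42 on the marker-negative spleen array. Cd209b, Cd209e, Cd209f and Cd209g were at the floor on all 4 compared arrays. These genes are close paralogs, and probes for one may bind RNA of another, which was not tested. The 250 bases before the start sites of the 3 members above the floor are shown because these neighbours on chromosome 8 were high in the same 2 arrays. They come from RefSeq (build GRCm38.p6), all on the minus strand, 5′ to 3′, at chr8:3748985-3749234 (Cd209a), chr8:3878500-3878749 (Cd209d) and chr8:3946864-3947113 (Cd209c). Capitals mark the core motif of the myeloid factor PU.1, GAGGAA, searched on both strands, which for a match on the other strand reads TTCCTC.
Cd209a: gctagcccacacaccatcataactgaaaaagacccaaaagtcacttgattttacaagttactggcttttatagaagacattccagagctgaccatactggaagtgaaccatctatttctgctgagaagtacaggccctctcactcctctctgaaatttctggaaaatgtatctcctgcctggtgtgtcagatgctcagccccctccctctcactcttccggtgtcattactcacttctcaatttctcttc
Cd209d: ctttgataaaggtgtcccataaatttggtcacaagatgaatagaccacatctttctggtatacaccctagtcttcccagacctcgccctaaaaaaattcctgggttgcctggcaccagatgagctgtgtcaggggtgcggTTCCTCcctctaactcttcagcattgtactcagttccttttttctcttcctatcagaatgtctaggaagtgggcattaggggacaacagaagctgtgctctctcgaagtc
Cd209c: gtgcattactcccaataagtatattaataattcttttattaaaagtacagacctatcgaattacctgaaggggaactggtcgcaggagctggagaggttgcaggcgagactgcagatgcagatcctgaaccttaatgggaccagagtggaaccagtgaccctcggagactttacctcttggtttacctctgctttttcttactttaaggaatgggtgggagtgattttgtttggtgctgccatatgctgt
One match was found, upstream of Cd209d. The motif is present in 23.3% of all 32851 promoter windows of this length, so the match is a description only.

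Further genes called higher differed in their SatM levels. Nid1, a basement membrane protein, was at the floor in inflammatory monocytes, in both numbered SatM arrays and in blood SatM, reached 3.15 in spleen SatM, and measured 6.88 and 5.82 in the Ly6C-negative cells, at least 16.6-fold above inflammatory monocytes (adjusted p = 0.0307). The marker-negative spleen array had Nid1 at 4.74, and those of marrow and blood had it at the floor. Cd7, a lymphoid surface protein, measured 3.29 on both inflammatory monocyte arrays and 8.32 and 6.52, with SatM between 2.99 and 4.87. Every marker-negative array lay above both Ly6C-negative arrays for Cd7, with 11.46 in spleen and 11.87 in marrow. Rfx2, a transcription factor of ciliogenesis, measured 2.89 and 3.68 against 5.75 and 6.78, with SatM between 2.81 and 3.69. Acp5, the tartrate-resistant acid phosphatase, measured 3.55 and 3.35 against a mean of 6.54 ± 0.65 (SD, n = 2), and SatM held it at 7.33 to 8.35.

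The 59 genes called lower were mostly of low level: in 32 the higher group mean was under 6. Rnase2b, a secreted ribonuclease, measured 8.31 and 7.95 against 4.42 and 4.75 and fell by 3.54 (SE 0.27, adjusted p = 0.000429). Gpr15, a chemoattractant receptor, measured 5.88 and 6.21 against 2.35 and 3.15. Cysltr1, the cysteinyl leukotriene receptor, measured 6.46 and 6.36 against 3.85 and 2.88. The unannotated gene 8030453O22Rik measured 5.03 and 5.84 against 2.45 and 2.30. SatM held all 4 of these genes at or near the floor. Among the other large falls were Ptdss2, a phosphatidylserine synthase (-4.03, SE 0.76), Ddx31, an RNA helicase (-3.20, SE 0.57), and Gatad1 (-2.79, SE 0.56). Further ones were Depdc7 (-2.75, SE 0.40), Rasgrf2, a Ras exchange factor (-2.72, SE 0.34), and Bloc1s5, of an organelle biogenesis complex (-2.66, SE 0.48). The SatM shift was -2.13 for Ptdss2, -1.62 for Gatad1 and -1.11 for Bloc1s5. It was 0.36 for Ddx31, 0.00 for Depdc7 and -0.62 for Rasgrf2. Depdc7 was at the floor on every SatM array, so a fall could not show in its shift.

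Among well-expressed genes, single members of the lysosome and the respiratory chain fell. Lysosomal acid lipase (Lipa) measured 10.36 and 10.28 against 8.55 and 8.44 (adjusted p = 0.0318) and the lysosomal hydrolase gene Aga 9.56 and 9.30 against 7.73 and 7.74 (adjusted p = 0.0474). Uqcrc2, a core subunit of complex III, measured 12.56 and 12.66 against 10.49 and 10.80 (adjusted p = 0.0286). Of 12 lysosome genes tested, Lipa was the 1 called in either fit, and the list's median difference among them was -0.26. Panel spleen and blood SatM also had less Lipa and Aga mRNA than numbered SatM, with differences of -1.77 and -1.69. Aga and Uqcrc2 were chosen for the text after their values were seen.

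The calls depended on single arrays. Of the 33 genes called higher, 2 (Ets1 and Cd209c) were called whichever 1 of the 4 arrays was left out. Of the 59 called lower, 11 were: Rnase2b, Gpr15, 8030453O22Rik, Cysltr1, Arhgap24, D130037M23Rik, Arsg, Ascl2, Fancf, Ift81 and Slfn3. Leaving out 1 array left between 2 and 15 genes higher and between 14 and 21 lower. Gpr15, 8030453O22Rik, Cysltr1, Arhgap24, D130037M23Rik, Ift81 and Cd209c were at the floor on every SatM and marker-negative array. Rnase2b was at the floor on all of these but blood SatM. Arrays at the floor add little or no spread, which lowers the pooled spread of these genes. That their calls held with an array left out thus does not show a sturdier difference. SatM arrays came from both sets, and their shift takes in tissue, array set and any difference in the cells sorted, such as the B cell genes described below. The spleen and blood panel SatM arrays exceeded the numbered marrow SatM arrays by at least 1 for 14 of the 33 genes called higher, beside 6.73% of all tested genes. They lay at least 1 lower for 11 of the 59 called lower, beside 9.74% of all. For P2ry10 the SatM shift was 5.05, above its difference of 4.09, and the difference turned to -0.79 with tissue and set terms and to -0.96 with the shift subtracted. For Cd209c the shift was 0.00. With that shift subtracted in the model, 0 genes were called higher by limma (106 at an unadjusted p under 0.05 and a difference of at least 1) and 5 lower. With terms for tissue and array set, 4 were higher and 6 lower, with Ets1, Ddit4, Dusp5, Rnase2b, Gpr15, 8030453O22Rik, Cysltr1 and D130037M23Rik among them. The SatM and marker-negative arrays held the last 5 of these at or near the floor. A fall with tissue or array set could hardly show there, so for these genes the kept call says little about either.

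**Figure D4:**
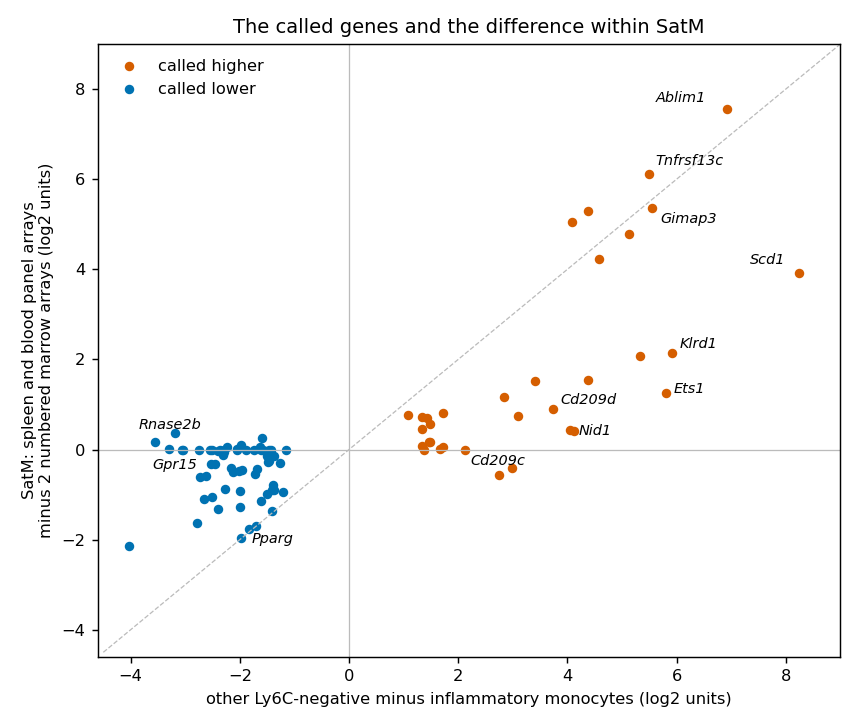
Each called gene's difference between other Ly6C-negative cells and inflammatory monocytes (horizontal, log2 units) beside the difference within SatM between panel spleen and blood arrays and numbered marrow arrays (vertical, log2 units). Ablim1, Tnfrsf13c and Gimap3 lie near the dashed line of equal differences, and Scd1, Ets1, Klrd1, Nid1 and Cd209c lie under it.

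Genes of antigen presentation and dendritic cells were higher in both Ly6C-negative arrays than in inflammatory monocytes for many members, without a call in the main fit. Flt3, the cytokine receptor of dendritic cell development, measured 4.93 and 5.20 against 8.51 and 8.30. Zbtb46, a transcription factor of conventional dendritic cells, measured 3.62 and 3.37 against 7.57 and 5.82. Dpp4 (CD26) measured 9.91 and 9.97 against 11.70 and 11.26. Among genes of MHC class II presentation, H2-Eb1 measured 9.22 and 9.84 against 12.75 and 11.76, the invariant chain gene Cd74 12.35 and 12.47 against 13.63 and 13.65, and the transactivator gene Ciita 2.46 and 3.61 against 5.22 and 4.98. H2-Oa measured 2.98 and 3.86 against 8.19 and 6.31, and H2-Ob 4.64 and 5.27 against 9.42 and 7.96. These examples were chosen after their values were seen, and in each both Ly6C-negative arrays lay above both inflammatory monocyte arrays. Other members did not: H2-DMa, Cd40, Ifi30 and Naaa differed by -0.16, -0.14, -0.25 and -0.26, and Cd86 measured 6.96 and 6.69 against 9.10 and 6.13. The actin-bundling gene Fscn1 was also chosen after its values were seen. It was at its floor in inflammatory monocytes and measured 11.66 and 10.04 (limma adjusted p = 0.0607). Marker-negative arrays had it between 9.21 and 13.56.

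None of 14 class II presentation genes was called by limma in the main fit (1 at an unadjusted p under 0.05), and 5 were higher in the 4-array fit. Their median difference was 1.61, beside -0.19 over all genes, and both arrays were at least 1 above inflammatory monocytes for 8 of the 14 (3.76% of all tested genes). Of 10 dendritic cell genes tested, 0 were called in the main fit (2 at an unadjusted p under 0.05) and 3 in the 4-array fit (Flt3, Cd209a and Dpp4). Xcr1 and Htr7 were at the floor on all 4 arrays, and Siglech and Itgae at or near it. The class II genes also differed within SatM: their median difference between panel spleen and blood and numbered marrow was 1.45. In spleen and blood SatM, Flt3 measured 3.02 and 3.19, and Cd209a was at the floor. On the marker-negative spleen array Flt3 measured 9.66, Cd209a 7.42, Zbtb46 11.38 and H2-Eb1 14.23. The marker-negative marrow and blood arrays had Flt3 at 3.97 and 2.30 and H2-Eb1 at 9.47 and 3.87.

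Several B-lineage genes were at the floor in inflammatory monocytes and well above it in both Ly6C-negative arrays. Ms4a1 (CD20) lay at the floor in inflammatory monocytes and measured 9.80 in the spleen array and 8.36 in the blood array. The transcription factor gene Ebf1 measured 9.13 and 8.26 from the floor, Cd79a 8.21 and 6.80, and the kinase gene Blk 7.16 and 6.89. Cd79b, the member of highest mean, measured 7.25 and 7.34 against 9.61 and 8.91, and Ighm 11.01 and 10.91 against 9.08 and 9.30. None of the 6 B cell genes tested was called by limma in the main fit (4 at an unadjusted p under 0.05). In the 4-array fit 5 were higher, and the immunoglobulin gene Ighm was lower. Ms4a1, Ebf1, Cd79a and Blk passed the filter only because both Ly6C-negative arrays were high, so their direction was set by the filter. Pax5, Cr2 and Fcer2a did not pass it. Pax5 was at the floor on all 4 arrays. It was also at the floor on the spleen SatM array, where Ebf1 measured 10.66, so its probe set says little here. Fcer2a (CD23) reached 2.77 in spleen. Summed levels here and below are sums of log2 values, to which a gene at the floor still adds 2.30. The summed level of the 9 B cell genes was 34.3 on both inflammatory monocyte arrays, 63.4 in the spleen array and 56.2 in the blood array. Panel SatM of spleen and blood had 70.2 and 55.7, and the numbered SatM arrays 33.1 each. The part of B-lineage RNA in Tnfrsf13c, Cd2, the Gimap genes and the class II genes was not tested.

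Markers of other lymphocytes were partial. Of the natural killer cell genes Klrd1 was called, and the granzyme gene Gzma measured 5.98 and 9.03 from the floor. Nkg7 measured 3.09 and 2.30 in inflammatory monocytes against 3.80 and 6.15. Ncr1, Eomes, Il2rb and Txk of the same list were at the floor on all 4 arrays. The summed level of 12 natural killer genes was 32.7 on both inflammatory monocyte arrays, 47.0 in spleen and 52.6 in blood. Of 9 T cell genes with a value, 0 passed the filter. Their summed level was 20.7 in the blood array, equal to inflammatory monocytes, and 25.4 in the spleen array, where Cd8a reached 4.78, Cd3e 3.33 and Cd3d 3.18. On the blood array and on each inflammatory monocyte array, 8 of these 9 genes were at the floor. The eosinophil list summed to 17.4 in spleen and 17.0 in blood against 17.1 and 16.9, the basophil and mast cell list to 28.1 and 25.9 against 27.0 and 26.4, and the erythroid list to 18.5 and 18.7 against 18.5 and 18.4. The stromal and endothelial list summed to 23.0 on both arrays, with all 10 genes at the floor. Of the members of highest mean in these lists, Siglecf measured 3.34 and 2.96 against 2.68 and 3.22, Hdc 5.10 and 4.54 against 6.18 and 4.03, and Ermap and Cdh5 between 2.30 and 2.61.

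**Figure D5:**
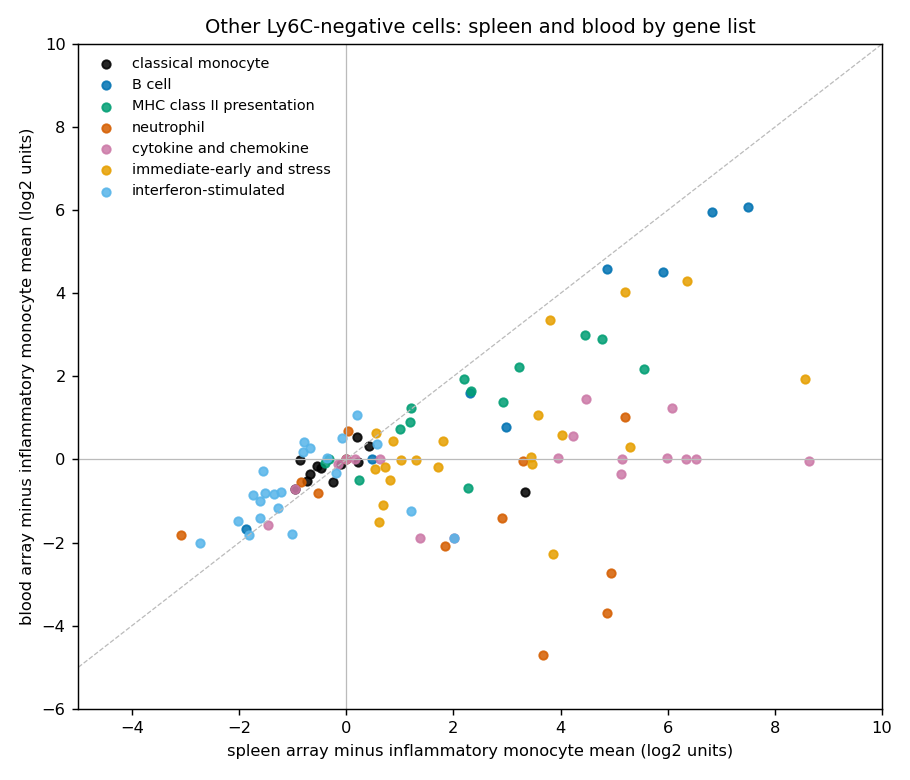
Difference of the spleen array (horizontal) and of the blood array (vertical) of other Ly6C-negative cells from the inflammatory monocyte mean, in log2 units, for the measured genes of 7 lists. Classical monocyte genes other than Cd14 lie near 0 on both axes, B cell genes are raised on both, and neutrophil and cytokine genes are spread along the spleen axis.

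The spleen and blood arrays differed most in granule, cytokine and immediate-early genes. Camp, the cathelicidin of neutrophil granules, measured 7.78 and 6.55 in inflammatory monocytes, 12.03 in the spleen array and 3.47 in the blood array. Ngp measured 8.98 and 8.00 against 12.17 and 3.80, lactoferrin (Ltf) 5.65 and 4.68 against 10.11 and 2.44, and S100a9 12.34 and 10.95 against 14.54 and 10.24. The groups overlapped for each of these genes because the spleen array lay above and the blood array below inflammatory monocytes. Cxcr2, which defines mature neutrophils, was at the floor on all 4 arrays. None of 11 neutrophil genes was called by limma in either fit (1 at an unadjusted p under 0.05 in the main fit). The summed level of 12 neutrophil genes was 118.9 in spleen, 80.4 in blood, and 99.8 and 93.3 in inflammatory monocytes. The panel SatM arrays split alike, with 101.6 in spleen and 55.9 in blood. The part of neutrophil RNA in the spleen array was not tested.

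Many cytokine genes were high in spleen, while in blood the median of the list was at inflammatory monocyte level. Cxcl10 and Ccl3 in blood lay at least 1 below both inflammatory monocyte arrays. Il1b measured 7.07 and 7.91 in inflammatory monocytes against 13.57 in spleen and 8.73 in blood. Il6 was 2.30 and 2.36 against 10.97 and 2.30, and Cxcl1, Il10 and Il1a were at the floor in blood and in inflammatory monocytes and measured 8.82, 8.64 and 7.45 in spleen. The immediate-early gene Nr4a3 measured 2.34 and 2.50 against 10.99 and 4.37, and Egr3 2.70 and 3.01 against 8.15 and 3.16. Heat-shock genes were high in both tissues: Hspa1b measured 10.15 and 11.24 against 14.49 and 14.05. The cytokine list had a median of 4.09 in spleen and 0.00 in blood, and the immediate-early list 1.80 and 0.05. Of the 18 cytokine genes, 6 were at the floor in blood, and 6 and 5 on the inflammatory monocyte arrays, which bears on the median of 0.00. Of 21 immediate-early genes Egr1 was called in the main fit, and 3 (Egr1, Hspa1a and Hspa1b) in the 4-array fit. Of 11 cytokine genes tested 0 were called in either fit (1 at an unadjusted p under 0.05 in the main fit). Cxcl1, Il10 and Il1a, above the floor on the spleen array alone, could not pass the filter and were not tested. In SatM the median spleen-minus-blood difference was 3.53 for cytokines and 2.52 for immediate-early genes, beside 3.79 and 1.79 in the other Ly6C-negative cells.

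Interferon-stimulated and cell cycle genes had lower median differences than all tested genes. Ifit1, an interferon-induced antiviral protein, measured 9.40 and 9.60 against 6.76 and 7.48, Ifit2 8.92 and 9.22 against 7.25 and 7.25, and Cmpk2 8.86 and 9.24 against 7.03 and 7.56. The 22 interferon-stimulated genes had a median difference of -0.96, and 6 had both arrays at least 1 below inflammatory monocytes (9.31% of all tested genes). None was called by limma in the main fit (3 at an unadjusted p under 0.05). In the 4-array fit 4 were lower, namely Ifit1, Ifit2, Rsad2 and Cmpk2. Numbered SatM had Ifit1 at 5.40 and 3.65. Of 30 cell cycle genes tested 0 were called in the main fit (0 at an unadjusted p under 0.05) and 7 were lower in the 4-array fit, with a median of -1.17. The mitotic cyclin gene Ccnb2 measured 5.92 and 4.97 against 2.31 and 2.30, and Mcm5, of the replicative helicase, 6.56 and 6.56 against 4.67 and 3.65.

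Among receptors and regulators, single members stood apart. The lipopolysaccharide receptor gene Tlr4 measured 8.59 and 8.72 against 6.34 and 5.97, a difference of -2.50 that was called in the 4-array fit (adjusted p = 0.0358) and not in the main fit (adjusted p = 0.0888). Panel SatM held Tlr4 at 6.17 to 6.47 and numbered SatM at 8.32 and 7.89. Treml2 measured 6.62 and 6.69 against 4.59 and 4.32, and the adhesion gene Icam1 9.20 and 9.26 against 10.83 and 10.53. Apolipoprotein E (Apoe) measured 9.22 and 9.08 against 10.60 and 10.73. Of 10 tissue macrophage genes tested, Siglec1 was called, at 3.72 and 3.74 against the floor. C1qa, Cd5l, Mertk, Folr2 and Gas6 were at the floor on all 4 arrays. Other members were well above it on all 4 and not called in either fit. C1qb measured 8.16 and 8.65 against 5.10 and 6.82, and Axl 6.16 and 6.54 against 4.91 and 5.23. Mrc1 measured 7.01 and 7.19 against 7.24 and 8.34, and Maf and Hmox1 lay between 9.03 and 10.55. Of 18 myeloid transcription factor genes 0 were called in the main fit (0 at an unadjusted p under 0.05) and 2, Irf4 and Pou2f2, were higher in the 4-array fit. Spi1 (PU.1), Irf8, Klf4, Zeb2 and Bcl6 differed by between -0.11 and 0.39. Of 11 trafficking receptor genes tested Cxcr4 was called. In the integrin and adhesion list (12 tested) 0 were called in the main fit (4 at an unadjusted p under 0.05) and 3 were higher in the 4-array fit. The C-type lectin (10 tested), TREM receptor (6) and Toll-like and Fc receptor (11) lists had 0 called in the main fit, with 1 at an unadjusted p under 0.05 in each. The primary granule (4), megakaryocyte and platelet (3) and stem and progenitor (4) lists had 0 called in the main fit and 0 at an unadjusted p under 0.05. Their members of highest mean were Prtn3 (5.75 and 5.25 against 5.72 and 5.39), Itgb3 (8.23 and 7.96 against 6.38 and 6.32) and Cd93 (11.14 and 11.12 against 11.52 and 11.53). Itgb3, an integrin of platelets, was called lower in the 4-array fit (difference -1.75, adjusted p = 0.0359).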

How the data were processed

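The deposited table holds log2 expression values per probe set as the authors processed them. The log base was inferred from the range, and the normalization is not given in the sources used here. Of 45101 probe sets, 34945 were kept, without 64 control sets, 9160 that have no symbol and 932 that have several. Each of 18193 genes was represented by its probe set of highest mean over 35 arrays, and symbols were updated through Entrez identifiers (34741 matched) to GRCm38.p6 names.

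Genes with at least 2 of the 4 compared arrays over that array's median were tested (9254). A gene at 2.30 on both arrays of 1 group could pass only through the other group, which set its direction. The model had 1 term for each of 6 groups over 14 arrays (8 residual degrees of freedom), fitted with limma 3.58.1 (lmFit, eBayes with trend) in R 4.3.3 and tested on simulated data. Tables and figures used Python 3.11.15, pandas 2.3.3, numpy 2.4.6 and matplotlib 3.10.9. A group was at the floor when all its arrays lay within 0.05 of the probe set's lowest value over the 35 arrays; folds against it are lower bounds. Named genes were the 10 largest rises and 10 largest falls without overlap between groups, at most 4 called genes from any list holding 3 or more, the measured sort, classical and nonclassical markers, and, for each other cell type, the members of highest mean in the Ly6C-negative sort. Other list members are examples chosen after their values were seen. The members and the 29 gene lists were chosen with earlier results of these data known. A search for the interferon response element was planned only if at least 3 interferon-stimulated genes were called, which was not the case. The alternatives tried were other normalization, filters, probe set rules, array sets, model options, tissue and set terms, and each array left out. Subtraction of the SatM shift was added after seeing the data.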

Additional observations from a re-analysis of the deposited data

Results flagged for a closer look

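For 10 genes of the lists, the spleen array of the other Ly6C-negative cells lay on one side of both inflammatory monocyte arrays and the blood array on the other, each by at least 1 log2 unit. The difference between the tissues was not tested, since each holds 1 array. In each case the spleen array was the higher. The difference of spleen minus blood was 8.56 for Camp, 8.37 for Ngp, 7.68 for Ltf and 3.94 for S100a8, all genes of neutrophil granules or cytosol. It was 6.14 for the nuclear receptor gene Nr4a2, 5.21 for the chemokine-binding receptor gene Ccrl2, 3.91 for Cxcl10 and 3.28 for Ccl3. It was 2.98 for the progenitor transcription factor gene Sox4 and 2.44 for the interferon-stimulated gene Oasl1. Over all 9254 tested genes, 27 had such opposite positions, 23 of them with spleen higher.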

How the results depend on the processing

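The main fit called 33 genes higher and 59 lower. For the genes higher, the count was 18 with no filter on dim genes, 7 with a filter at the 60th percentile, 20 with the mean of probe sets, 62 with every probe set, 232 with the 4 compared arrays alone, 83 with all 35 arrays, 4 with tissue and set terms, 2 to 15 with 1 array left out and 0 minus the SatM shift (limma; 106 at an unadjusted p under 0.05). For the genes lower, it was 4 at the 60th percentile, 164 with every probe set, 638 with the 4 arrays alone, 177 with all 35 arrays, 6 with tissue and set terms, 14 to 21 with 1 array left out and 5 minus the SatM shift. With tissue and set terms the difference reversed for Ablim1 (-0.28), Jakmip1 (-0.51), P2ry10 (-0.79) and Pparg (0.0494). Minus the SatM shift it reversed for Ablim1 (-0.64), Tnfrsf13c (-0.62), Jakmip1 (-0.93) and P2ry10 (-0.96). The other settings kept both counts within 1.5 times. The cause was not tested. Subtracting the SatM shift was chosen after seeing the data. No paired analysis was possible, because the groups came from different tissues and array sets and nothing in the labels links their arrays. After quantile normalization 32 of the 33 and 45 of the 59 kept their call. With a tissue term the counts were 47 higher and 57 lower, but 19 of the 33 and 25 of the 59 kept their call.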

Other observations

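Over all tested genes, 87 were at least 3 log2 units higher in the spleen array of the other Ly6C-negative cells than in the blood array, and 9 were at least 3 lower. Ptgs2, the inducible prostaglandin synthase, measured 13.17 in spleen and 4.72 in blood, with 7.68 and 8.15 in inflammatory monocytes. Acod1, which makes itaconate, measured 10.33 in spleen and was at the floor in blood. The receptor genes Trem1 and Il1r2 measured 8.83 and 8.49 in spleen against 3.73 and 3.30 in blood. On the other side, Gzma was higher in blood (9.03) than in spleen (5.98). These genes were chosen after their values were seen, and each tissue holds 1 array, so none of these differences was tested.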
